A study of Mus musculus with 16 samples.

Results

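Cyclin-dependent kinases 4 and 6 and the 3 D-type cyclins form the enzyme that carries a resting cell out of G1. A D-type cyclin, made in response to growth signals, binds CDK4 or CDK6, and the pair phosphorylates the RB proteins, which frees E2F factors to switch on the genes of S phase. INK4 proteins block the kinases directly, and CIP/KIP proteins bind the assembled complexes. In hematopoietic stem cells (HSCs), which are mostly quiescent, the level of CDK6 is known to set how readily a cell leaves quiescence after a stimulus.

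RNA for *Cdk4*, *Cdk6*, *Ccnd1*, *Ccnd2* and *Ccnd3* was followed in HSCs sorted by MAC-1, the integrin of CD11b (*Itgam*) and CD18 (*Itgb2*). The members were taken by gene name, and all 5 were found among the 46078 genes of the count table and among the 13661 genes that passed the filter on low counts. The HSCs were LSK CD48- CD150+ cells of wild-type B6.SJL mice. SS (steady state) MAC-1- (n = 3) and SS MAC-1low (n = 3) HSCs were labelled untreated. The 4 week MAC-1- (n = 3), 4 week MAC-1low (n = 4) and 4 week MAC-1+ (n = 3) HSCs were isolated 4 weeks after 8000 LSK cells had been given to recipients irradiated with 900 cGy. One protocol text that describes the transplantation stands with all 16 samples, the SS samples included, and the SS label was followed. No MAC-1+ population was sampled at SS, and the labels do not say whether samples came from separate mice, so p-values measure the spread between these samples.

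Total counts ran from 13781278 to 28580658 per sample, and 14533 to 17576 genes were detected. Replicates differed far beyond counting noise, by 126 to 306 times the chi-square value that counting alone gives per gene. *Itgam* was low everywhere but followed the sort at 4 weeks, with 3.80 to 30.02 CPM (counts scaled by TMM-adjusted library size) in MAC-1+, 0.112 to 4.36 in MAC-1low and 0 to 1.78 in MAC-1- samples. *Itgb2* did not, with 8.55 to 15.9 CPM in 4 week MAC-1+ and 18.8 to 31.5 CPM in 4 week MAC-1- samples. Each of the 8 HSC markers was detected in some sample of every population, and *Cd48*, whose protein was gated out, had 0 to 133.4 CPM. In 4 week MAC-1+ replicate 2, *Cd48* and the gene of CD150, also among the 8 markers, together had only 0.126 CPM. In these bulk samples fewer cells of a type and less RNA per cell cannot be told apart.

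The members lie on 5 chromosomes in GENCODE M21 (GRCm38). *Cdk4* is at chr10:127063534-127067920 (+ strand), *Cdk6* at chr5:3341485-3531008 (+), *Ccnd1* at chr7:144929931-144939925 (-), *Ccnd2* at chr6:127125162-127152193 (-) and *Ccnd3* at chr17:47505051-47599691 (+). No 50-base word of their transcripts is shared between members. On the opposite strand, *Tspan31* covers 19.7% of the exon bases of *Cdk4*, and LTO1 covers 23.4% of those of *Ccnd1*, so reads there cannot be told apart in an unstranded library. All samples together held 10141 counts for *Tspan31* against 102241 for *Cdk4*, but 3845 counts for LTO1 against 4167 for *Ccnd1*.

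The promoters of both kinases are shown because these partners for the same cyclins gave different calls with MAC-1: *Cdk6* passed the test between 4 week populations and *Cdk4* did not. The difference between them was not tested. Each run is the 250 bases before the gene's start in RefSeq (GRCm38.p6), *Cdk4* at chr10:127063285-127063534 and *Cdk6* at chr5:3343643-3343892, both on the + strand. The *Cdk4* window ends at the gene's start in GENCODE. The *Cdk6* window lies inside the gene as GENCODE places it, from 3341485 on, so the annotations differ on that start. Capitals mark CACGTG, the E-box that MYC and its partner MAX bind, which reads the same on both strands.
Cdk4: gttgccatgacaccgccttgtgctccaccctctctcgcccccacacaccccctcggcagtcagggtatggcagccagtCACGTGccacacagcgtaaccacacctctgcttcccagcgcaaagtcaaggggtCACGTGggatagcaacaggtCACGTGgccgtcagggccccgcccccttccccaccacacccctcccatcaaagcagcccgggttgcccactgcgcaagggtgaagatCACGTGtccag
Cdk6: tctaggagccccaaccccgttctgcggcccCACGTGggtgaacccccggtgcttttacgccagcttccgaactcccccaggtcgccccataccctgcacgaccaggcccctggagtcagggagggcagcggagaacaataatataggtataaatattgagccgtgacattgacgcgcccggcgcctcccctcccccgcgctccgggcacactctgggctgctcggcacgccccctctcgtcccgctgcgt

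The *Cdk4* window held 4 of these E-boxes, starting 172, 118, 98 and 11 bases before the gene's start, and the *Cdk6* window held 1, starting 220 bases before it. Of all 32851 windows of this length, 6.02% held at least 1. The GC box GGGCGG, searched on both strands, was found 1 time for *Cdk4* and 0 times for *Cdk6*, against 32.7% of all windows with at least 1. Neither window for *Ccnd3* held an E-box, and the table matched 3 of the 5 members. These matches describe letters only.

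*Cdk6* had the clearest relation to MAC-1 of the 5 genes, and at 4 weeks it fell from MAC-1- to MAC-1+ HSCs. Its level was 288.4, 288.2 and 228.3 CPM in the 4 week MAC-1- samples. It was 179.4, 106.9, 177.2 and 181.5 CPM in the 4 week MAC-1low samples. It was 61.4, 93.8 and 44.5 CPM in the 4 week MAC-1+ samples. The 10 samples taken at 4 weeks thus fell into 3 steps without overlap, lower at each step from MAC-1- to MAC-1low to MAC-1+. Among all genes tested, 0.717% fell in this way without overlap and 0.381% rose.

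The SS samples lay between these extremes. In SS MAC-1- samples *Cdk6* was 103.0, 134.7 and 162.4 CPM. The SS MAC-1low samples had 170.5, 282.4 and 152.8 CPM. At SS the groups overlapped, and the higher mean of MAC-1low rested largely on replicate 2, which reached the level of the 4 week MAC-1- samples. By group mean the order ran from 4 week MAC-1- (268 ± 34.6 CPM, SD, n = 3) through SS MAC-1low (202 ± 70.3, n = 3), 4 week MAC-1low (161 ± 36.3, n = 4) and SS MAC-1- (133 ± 29.7, n = 3) to 4 week MAC-1+ (66.6 ± 25.1, n = 3). No neighbours in this order differed at an adjusted p below 0.1, with values from 0.172 for the lowest pair to 0.879.

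**Figure D1:**
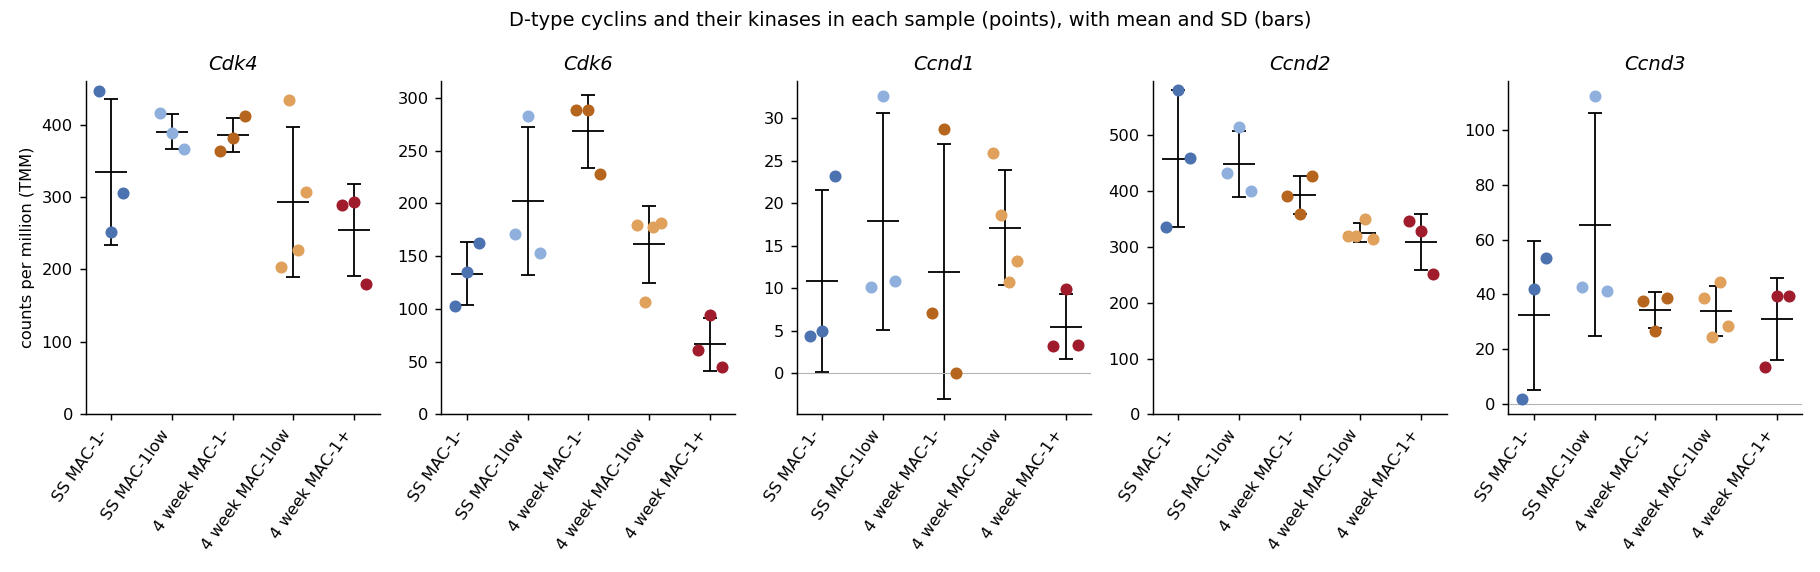
CPM (TMM scaled, linear axes) of the 5 genes in every sample, as points grouped by population, with the mean and SD as black bars. For *Cdk6* the 4 week samples form 3 steps, from 228.3 CPM or more in MAC-1- to 93.8 CPM or less in MAC-1+ samples, while the other genes show no such steps.

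A test of any difference among the 5 populations, fitted across all genes with edgeR's quasi-likelihood method, called *Cdk6* (adjusted p = 0.0414, rank 127 of 13661 genes by p) where it called 2.22% of all genes. The other 4 members did not pass. Their adjusted p was 0.296 for *Ccnd2*, 0.587 for *Cdk4*, 0.928 for *Ccnd3* and 0.993 for *Ccnd1*. Without 1 of 4 samples (4 week MAC-1- replicate 1 or 2, 4 week MAC-1+ replicate 1 or 3) the adjusted p rose past 0.1, to at most 0.127.

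The ends of the MAC-1 range during regeneration were compared within the 4 week HSCs. From MAC-1- to MAC-1+, *Cdk6* fell 4.03-fold (log2 fold change -2.01, SE 0.33, 95% confidence interval -2.72 to -1.30, adjusted p = 0.00563). It was the only one of the 5 members called, where 2.06% of all genes tested were called lower and 3.25% in either direction. By p it ranked 56 of 13661 genes and 39 among those that were lower. Under all 9 other settings of the analysis and with each of the 16 samples left out in turn the log2 fold change stayed between -2.31 and -1.75 and the adjusted p was at most 0.0730.

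The partner kinase *Cdk4* did not pass. It was 363.9, 381.6 and 411.1 CPM in 4 week MAC-1- samples and 289.3, 293.1 and 180.5 CPM in 4 week MAC-1+ samples. These groups did not overlap, as for 11.5% of all genes in this direction, but the log2 fold change of -0.60 (SE 0.28) had an interval of -1.20 to 0.00 and an adjusted p of 0.378. *Ccnd2* had the smallest error, with a log2 fold change of -0.35 (SE 0.20, interval -0.77 to 0.07, adjusted p = 0.482), and its groups did not overlap either. For *Ccnd1* and *Ccnd3* the log2 fold changes were -1.12 (SE 1.41) and -0.15 (SE 0.81), with adjusted p of 0.840 and 0.982. Their intervals, -4.12 to 1.88 and -1.88 to 1.59, were wide on both sides of 0. The sign for *Ccnd1* turned with limma-voom (1.24) and without 4 week MAC-1- replicate 2 (0.64), and that for *Ccnd3* without 4 week MAC-1+ replicate 1 (0.21).

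The steps within the 4 week HSCs were not called singly. From MAC-1- to MAC-1low *Cdk6* had a log2 fold change of -0.73 (SE 0.30, interval -1.37 to -0.10, adjusted p = 0.609), where 0.278% of all genes were called and 5.53% were lower without overlap. From MAC-1low to MAC-1+ it had -1.28 (SE 0.31, interval -1.94 to -0.61, adjusted p = 0.474). No gene at all was called by edgeR in that last comparison (0 of 13661, with 936 at an unadjusted p below 0.05), where DESeq2 called 318 and *Cdk6* among them (adjusted p = 0.0107). Lower values without overlap were found for 4.48% of all genes there. *Ccnd2* was lower without overlap in 4 week MAC-1low than in MAC-1- samples (log2 fold change -0.27, SE 0.18, adjusted p = 0.897). In both of these comparisons *Cdk4* and *Ccnd3* overlapped, and *Ccnd1* was lower without overlap in MAC-1+ than in MAC-1low samples with a log2 fold change of -1.65 (SE 1.37, adjusted p = 0.970).

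At SS the direction for *Cdk6* was the opposite one, without passing the test. MAC-1low against MAC-1- gave a log2 fold change of 0.60 (SE 0.32, interval -0.09 to 1.28, adjusted p = 0.586), and 0.27 without SS MAC-1low replicate 2. Only 0.0146% of all genes were called in this comparison, and none of the 5 members was. An interaction term asked whether the effect of MAC-1low was the same at 4 weeks as at SS. It gave -1.33 for *Cdk6* (SE 0.44, interval -2.27 to -0.40, unadjusted p = 0.00839, adjusted p = 0.444), where 0.0586% of all genes were called. For the other 4 members the interaction had adjusted p from 0.702 to 1.00.

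Against SS HSCs of the same MAC-1 level, all 3 samples of 4 week MAC-1- HSCs lay above all 3 at SS for *Cdk6*. The log2 fold change was 1.01 (SE 0.32, interval 0.32 to 1.70), but the adjusted p was 0.319, where 0.432% of all genes were called and 9.24% were higher without overlap. In MAC-1low HSCs the samples overlapped and the log2 fold change was -0.32 (SE 0.30, adjusted p = 0.879), where 0.0439% of all genes were called. There *Ccnd2* was lower without overlap, at 319.2, 318.7, 350.4 and 314.1 CPM against 432.6, 514.6 and 400.0 CPM. Its log2 fold change was -0.46 (SE 0.18, interval -0.85 to -0.07, adjusted p = 0.510), and 4.98% of all genes were lower without overlap.

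The 4 week MAC-1+ HSCs were also compared with both SS populations. *Cdk6* was 3.03-fold lower than in SS MAC-1low HSCs (log2 fold change -1.60, SE 0.33, interval -2.30 to -0.90, adjusted p = 0.0523), where 1.42% of all genes were called, 0.834% lower. This call was lost without SS MAC-1low replicate 2 (-1.29, adjusted p = 0.185), without 4 week MAC-1+ replicate 1 (adjusted p = 0.144) or replicate 3 (adjusted p = 0.144). Against SS MAC-1- HSCs all 3 samples were lower without overlap, as 8.62% of all genes were, with a log2 fold change of -1.003 (SE 0.32) and an adjusted p of 0.172, where 2.36% of all genes were called in either direction. *Ccnd2* had log2 fold changes of -0.54 (SE 0.20, adjusted p = 0.300) against SS MAC-1low and -0.57 (SE 0.20, adjusted p = 0.208) against SS MAC-1- HSCs. Against SS MAC-1low HSCs every member was lower without overlap, as 8.56% of all genes were. There *Cdk4* had -0.62 (SE 0.28, adjusted p = 0.405), *Ccnd1* -1.71 (SE 1.43, adjusted p = 0.724) and *Ccnd3* -1.08 (SE 0.82, adjusted p = 0.678). Against SS MAC-1- HSCs *Cdk4* and all D-type cyclins overlapped. In the remaining 2 comparisons none of the members was called, where 0.505% of all genes were called for 4 week MAC-1- against SS MAC-1low and 0.19% for 4 week MAC-1low against SS MAC-1- HSCs. Over all 10 pairwise comparisons, 2 of the 50 tests of members were called, both for *Cdk6*. The share of all genes called in a single one of these comparisons ran from 0% to 3.25%.

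**Figure D2:**
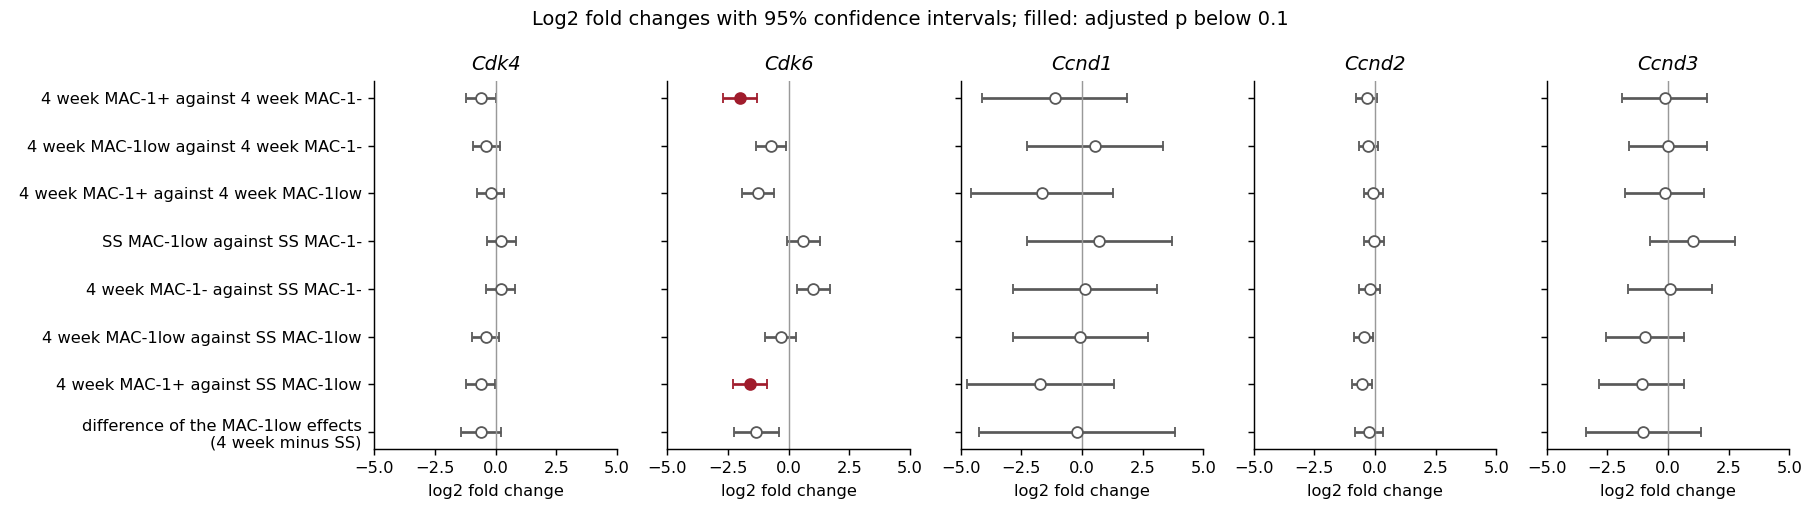
Log2 fold changes (x axis) of the 5 genes in 8 comparisons (y axis) with 95% confidence intervals, filled red where the adjusted p is below 0.1. The 2 filled points belong to *Cdk6* in 4 week MAC-1+ HSCs, at -2.01 and -1.60, and the intervals of *Ccnd1* and *Ccnd3* are several times as wide as those of *Cdk4* and *Ccnd2*.

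*Ccnd2*, known as the D-type cyclin that responds to cytokines in many blood cells, was the main D-type cyclin in all 16 samples. It ran from 251.8 CPM in 4 week MAC-1+ replicate 3 to 580.5 CPM in SS MAC-1- replicate 2. By group mean it ran from 458 ± 123 CPM in SS MAC-1- (SD, n = 3) through 449 ± 59.1 in SS MAC-1low (n = 3), 393 ± 34.01 in 4 week MAC-1- (n = 3) and 326 ± 16.7 in 4 week MAC-1low (n = 4) to 309 ± 50.3 in 4 week MAC-1+ HSCs (n = 3). No pair of neighbours in this order was called, and the largest spread was in SS MAC-1-, with 334.9, 580.5 and 458.7 CPM.

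*Ccnd3*, the D-type cyclin with known roles in lymphocyte and erythroid precursors, was far lower and uneven. SS MAC-1- replicate 1 held 24 counts (1.76 CPM) beside 42.1 and 53.3 CPM in the other samples of that population. SS MAC-1low samples held 42.8, 112.3 and 41.3 CPM, so both the lowest and the highest value of *Ccnd3* came from SS. At 4 weeks it ran from 26.7 to 38.5 CPM in MAC-1-, from 24.6 to 44.5 CPM in MAC-1low and from 13.7 to 39.6 CPM in MAC-1+ samples.

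*Ccnd1*, best known as a cyclin of epithelial and mesenchymal cells, was the least abundant and the least even. The 4 week MAC-1- samples held 7.03, 28.8 and 0 CPM, and the count of 0 allows up to 0.181 CPM (3 counts; counting error only). Every other sample had reads, from 3.18 CPM in 4 week MAC-1+ to 32.6 CPM in SS MAC-1low HSCs. Its coefficient of variation within a population ran from 39.2% to 126%, against 5.13% to 26.8% for *Ccnd2*, and no comparison called it or *Ccnd3*.

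*Cdk4* was high in every sample, between 180.5 and 446.7 CPM. The SS MAC-1- samples had 446.7, 251.2 and 305.3 CPM. The SS MAC-1low samples had 415.5, 388.7 and 366.4 CPM. At 4 weeks MAC-1low samples spread from 203.3 to 433.9 CPM, nearly the whole range seen in the series. The means ran from 390 ± 24.6 CPM in SS MAC-1low to 254 ± 63.9 CPM in 4 week MAC-1+ HSCs (SD, n = 3 each), and no neighbours in the order differed beyond their spread.

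Levels can be set side by side between genes only per length. Per kilobase of all annotated exons, *Cdk4* had 101 ± 25.9 CPM, *Ccnd2* 40.7 ± 8.90, *Cdk6* 11.9 ± 5.46, *Ccnd3* 4.45 ± 2.66 and *Ccnd1* 2.75 ± 2.12 (SD over 16 samples). With the length of the longest principal transcript instead, a choice made after seeing the data, *Ccnd3* came to 18.5 ± 11.03 and *Cdk6* to 14.4 ± 6.63, so the order of this pair depends on the length used, while *Cdk4* and *Ccnd2* stayed ahead and *Ccnd1* last. *Ccnd2* gave 85.4% ± 6.02 of the D-type cyclin RNA per kilobase of exon (73.5% to 97.0%) and 74.6% ± 9.02 by transcript length (56.8% to 96.4%). *Ccnd3* gave 8.96% ± 3.80 by the first length and 21.3% ± 8.10 by the second. *Ccnd1* gave 5.62% ± 3.96 and 4.13% ± 2.94.

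The balance of the kinases leaned to *Cdk4* in every sample. The ratio of *Cdk6* to *Cdk4* per kilobase of exon was 0.0493, 0.0744 and 0.0572 in 4 week MAC-1+ HSCs. It was 0.184, 0.175 and 0.129 in their MAC-1- counterparts. The 4 week MAC-1low samples ran from 0.0572 to 0.205, SS MAC-1- from 0.0535 to 0.1245 and SS MAC-1low from 0.0953 to 0.169. The MAC-1+ values lay below all 4 week MAC-1- and all SS MAC-1low values, and overlapped those of SS MAC-1- and 4 week MAC-1low samples.

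**Figure D3:**
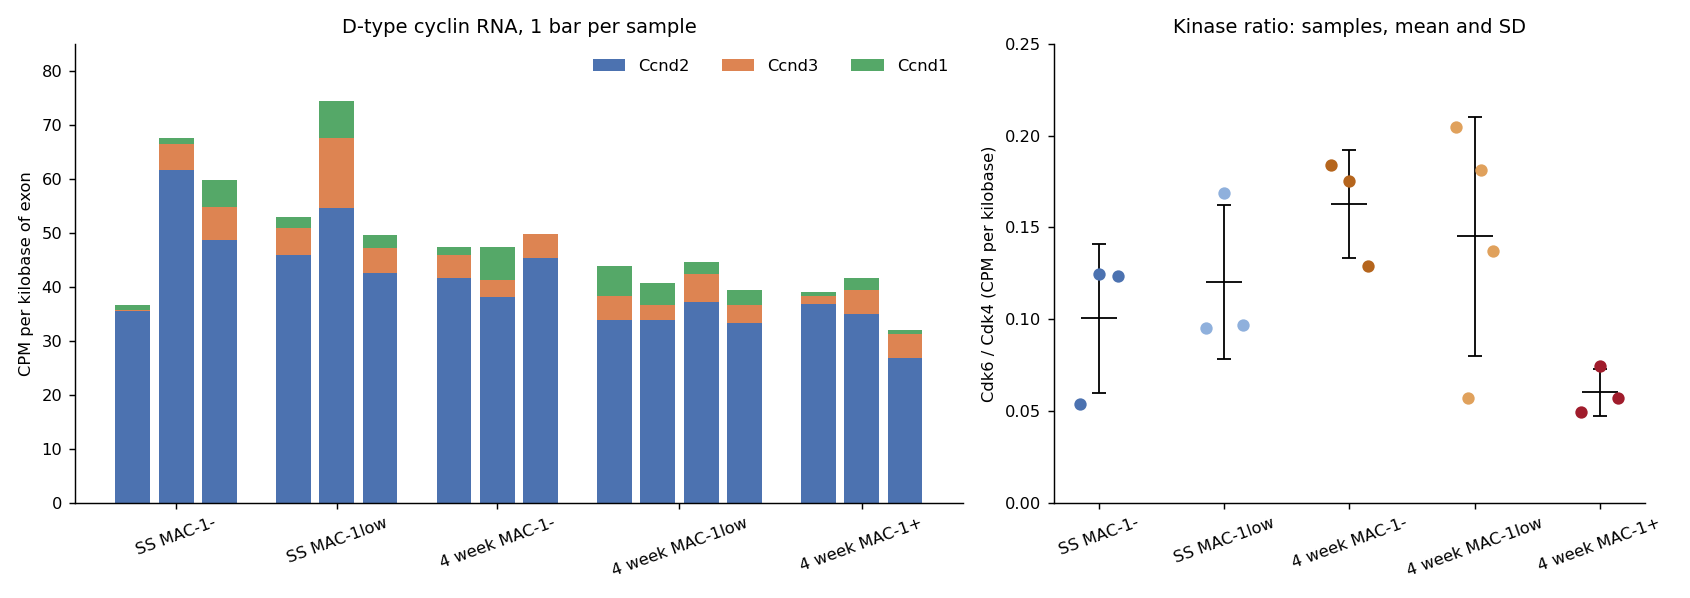
Left, CPM per kilobase of exon of *Ccnd2*, *Ccnd3* and *Ccnd1* stacked in 1 bar per sample and grouped by population; *Ccnd2* fills 73.5% or more of every bar. Right, the ratio of *Cdk6* to *Cdk4* per kilobase in each sample with mean and SD; the 3 samples of 4 week MAC-1+ lie between 0.0493 and 0.0744.

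The members varied largely apart from each other. Over the 16 samples the highest Pearson r of log2 CPM was 0.53 for *Cdk6* with *Ccnd2* (Spearman rho 0.37), and *Cdk4* with *Cdk6* had 0.42 (rho 0.24). The remaining pairs ran from -0.27 to 0.37. These are descriptions over samples that share populations, depth and amplification.

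Among 7136 genes with an average log2 CPM of at least 3, those most like *Cdk6* over the 16 samples included *Snrpa* (r = 0.83) and *Gne* (r = 0.82). For *Cdk4* they were *Psmb1* (0.81), *Gar1* (0.81) and *Tceb2* (0.80), and for *Ccnd2* they were *Sin3b* (0.86), *2310036O22Rik* (0.86) and *Trmt112* (0.82). For *Ccnd1* they were *Trim41* (0.86), *Gtf3c4* (0.83) and *Osbpl2* (0.83), with rho of only 0.44 to 0.51. For *Ccnd3* they were *Sugp2* (0.93), *Chek2* (0.92) and *Atp6v1h* (0.90). Without SS MAC-1- replicate 1, the library with 24 *Ccnd3* counts, these last values came to 0.79, 0.63 and 0.56, while the values for *Snrpa* and *Gne* with *Cdk6* stayed at 0.83 and 0.81.

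The rest of the pathway was read from 10 lists of 64 genes, of which 62 were tested. Between MAC-1+ and MAC-1- HSCs at 4 weeks 3 of these were called, all lower, or 4.84% of the lists against 3.25% of all genes. *Tyms*, the thymidylate synthase of S phase, was 319.4, 308.2 and 231.3 CPM in MAC-1- and 88.4, 74.5 and 67.4 CPM in MAC-1+ samples (log2 fold change -1.90, SE 0.39, adjusted p = 0.0186). *Tfdp1*, the partner through which E2F factors bind DNA, had a log2 fold change of -1.90 (SE 0.54, adjusted p = 0.0965). *Mcm3*, a subunit of the replicative helicase, had -1.36 (SE 0.38, adjusted p = 0.0939). The call for the E2F and DP factors list, that of *Tfdp1*, was absent in 20 of 25 alternatives, while between 1 and 4 S phase genes were called lower in each of them.

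Most genes of the downstream lists lay on the same side without being called by edgeR. In that comparison 12 of 15 E2F target S phase genes (median log2 fold change -0.80) and 11 of 12 mitosis genes (-0.75) had negative values, against a median of 0.07 over all genes tested. In 9 of 25 alternatives 1 to 3 mitosis genes were called lower. DESeq2 called 3, and 1321 of all 13661 genes in either direction. Among these 9 alternatives were the fits without SS MAC-1- replicate 3, 4 week MAC-1low replicate 1 or 4 week MAC-1+ replicate 1. *Mki67*, the proliferation marker, was 345.7, 251.0 and 145.0 CPM in MAC-1- and 268.3, 133.9 and 101.7 CPM in MAC-1+ samples, which overlapped (log2 fold change -0.56, SE 0.41, adjusted p = 0.639). *Rb1*, the first target of the kinases, had -0.89 (SE 0.60, adjusted p = 0.585), and *Myc* had -0.22 (SE 0.31, adjusted p = 0.870). The sums over the lists showed the steps less sharply than *Cdk6* did. S phase genes summed to 2030 to 2540 CPM in 4 week MAC-1-, 1530 to 1790 in MAC-1low and 1020 to 1590 in MAC-1+ samples, and mitosis genes to 1500 to 1680, 1280 to 1580 and 741 to 1120 CPM.

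The inhibitors of these kinases were not called by edgeR in any comparison reported. DESeq2 called 1 CIP/KIP gene higher in 4 week MAC-1+ HSCs against each SS population. Against SS MAC-1- and SS MAC-1low it called 1414 and 1088 of all 13661 genes there. Between the MAC-1low populations it called 1 CIP/KIP gene higher and 1 INK4 gene lower at 4 weeks, with 518 genes called. It called 1 INK4 gene in the interaction, with 594 genes called. *Cdkn1b*, the CIP/KIP inhibitor p27, was 21.8, 27.7 and 45.4 CPM in 4 week MAC-1+ samples against 11.7 to 13.1 CPM in 4 week MAC-1- samples (log2 fold change 1.37, SE 0.89, adjusted p = 0.563). It was thus higher without overlap, as 10.2% of all genes tested were. In SS samples it was 1.15 to 7.13 CPM. *Cdkn1c*, the inhibitor p57 of quiescent HSCs, overlapped between MAC-1+ and MAC-1- samples at 4 weeks (log2 fold change 0.35, SE 1.64, adjusted p = 0.977), and *Cdkn1a*, which encodes p21, was at 4.18 CPM or less throughout. Of the INK4 genes, *Cdkn2a* and *Cdkn2b* were at 0 in all populations and were not tested. The remaining lists (RB family, cyclin E/A and CDK2, kinase activation and chaperones, D-type cyclin turnover, MYC network) had no edgeR call between MAC-1+ and MAC-1- HSCs at 4 weeks, with medians of -0.19, -0.94, -0.43, 0.16 and -0.03. In 7 of 25 alternatives, DESeq2 and limma-voom among them, 1 gene of the MYC network was called higher there. Of all 13661 genes DESeq2 called 1321 and limma-voom 866 in that comparison.

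In the other comparisons edgeR made 2 further calls. *E2f8*, a repressor of the E2F family, was 47.8 to 64.7 CPM in 4 week MAC-1- and 9.17 to 12.7 CPM in SS MAC-1- samples (log2 fold change 2.47, SE 0.54, adjusted p = 0.0927). In 22 of 25 alternatives no gene of the E2F and DP factors list was called higher there. *Tyms* was lower in 4 week MAC-1+ than in SS MAC-1low HSCs (log2 fold change -1.98, SE 0.39, adjusted p = 0.0469). In 5 of 25 alternatives no E2F target S phase gene was called lower there. None of the 62 genes was called between the SS populations, between the MAC-1low populations or in the interaction by edgeR with all samples. Between the SS populations DESeq2 called 4 mitosis genes and 1 S phase gene higher, where it called 737 of all 13661 genes. Without SS MAC-1- replicate 1 edgeR called 1 mitosis gene there, with 14 of 14576 genes called. In the interaction this fit called 1 mitosis and 1 S phase gene, with 17 genes called. Mitosis genes had positive values, none called by edgeR with all samples, in 11 of 12 cases with MAC-1low at SS (median 1.25) and in 12 of 12 with transplantation in MAC-1- HSCs (median 1.24), where *Cdk4* had 0.22 and 0.21, *Ccnd2* -0.03 and -0.22, and *Cdk6* 0.60 and 1.01. For the second of these comparisons DESeq2 called 3 mitosis genes higher, where it called 882 of all 13661 genes. There edgeR called 1 mitosis gene without SS MAC-1- replicate 1 or 3, with 41 and 38 genes called.

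**Figure D4:**
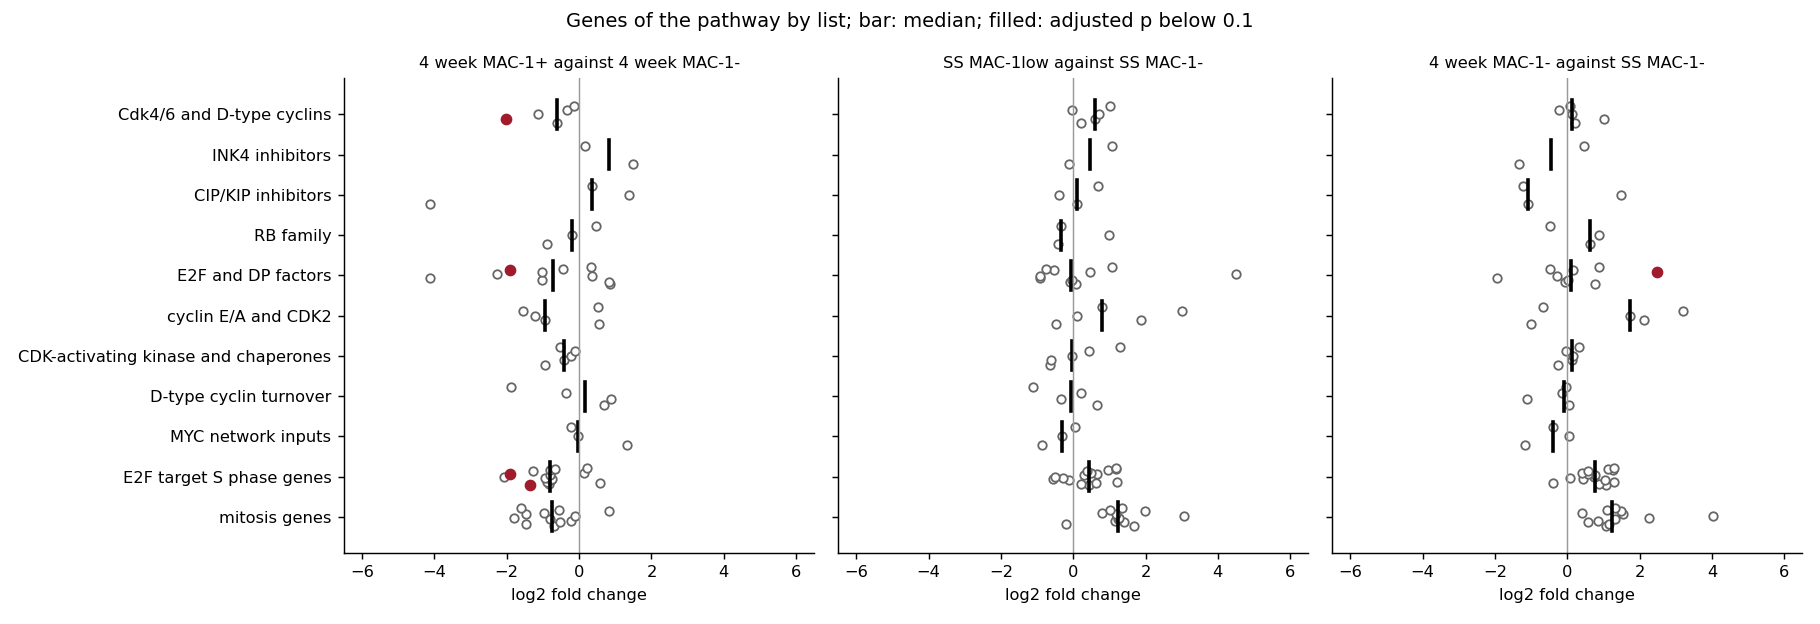
Log2 fold changes (x axis) of the 5 genes and of the genes of 10 pathway lists (y axis) in 3 comparisons, 1 point per gene, with the list's median as a bar and calls at an adjusted p below 0.1 filled. Between MAC-1+ and MAC-1- HSCs at 4 weeks the filled points are *Cdk6*, *Tfdp1*, *Mcm3* and *Tyms*, all lower; the medians of S phase and mitosis genes lie at -0.80 and -0.75 there and above 0 in the other panels.

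Markers of other cells moved along with *Cdk6* at 4 weeks. The 6 megakaryocyte markers summed to 4130 to 6630 CPM in 4 week MAC-1-, where *Cdk6* was highest, and to 157 to 207 CPM in 4 week MAC-1+ samples, where it was lowest. All 6 had negative log2 fold changes between these groups and 2 were called, where 2.06% of all genes tested were called lower. None of the 6 was at 0 in any population. The sums were 596 to 1040 CPM in SS MAC-1-, 304 to 667 in SS MAC-1low and 347 to 865 in 4 week MAC-1low samples, and SS MAC-1low replicate 2 had the lowest of the SS sums and 282.4 CPM of *Cdk6*. The sum of the 8 HSC markers ran the other way, with 691 to 890 CPM in 4 week MAC-1- and 2270 to 3460 CPM in 4 week MAC-1+ samples. It was 1480 to 2090 CPM in the 3 populations between them. Of the 8 markers, 7 had positive log2 fold changes in 4 week MAC-1+ against MAC-1- HSCs. Among them 5 were called higher, where 1.19% of all genes tested were. The remaining marker, the gene of CD150, had a negative value and was not called.

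The 8 neutrophil markers summed to 164, 951 and 7304 CPM in 4 week MAC-1+ HSCs, against 23.1 to 69.7 CPM in MAC-1- HSCs. Of the 6 that were tested, *S100a8* and *S100a9* were the 2 called, both higher, where 1.19% of all genes tested were. The MAC-1+ sample with a sum of 164 CPM, within 168 CPM of the SS samples, had 61.4 CPM of *Cdk6*. Without the sample with 7304 CPM, replicate 3, the log2 fold change of *Cdk6* against 4 week MAC-1- HSCs was -1.75 (adjusted p = 0.0325). *Csf1r* was at 0 in 4 week MAC-1low and MAC-1+ samples, *Ly6c2* and *Ccr2* in 4 week MAC-1- samples, and *Cd79a*, *Cd3e* and *Il7r* in both 4 week MAC-1- and MAC-1+ samples. Not all genes of these lists were low. *Lyz2*, the lysozyme of myeloid cells, was 346 to 683 CPM in the 4 week samples and overlapped between MAC-1- and MAC-1+, and *Ly6c2* reached 108.2 CPM in MAC-1+ replicate 3. *Nkg7*, a granule gene of cytotoxic lymphocytes, gave nearly all of the lymphoid sum and, like *Cdk6*, was low at the MAC-1+ end at 4 weeks. It ran from 322.9 to 642.0 CPM in 4 week MAC-1- and was at most 175.9 CPM in 4 week MAC-1+ samples (log2 fold change -2.51, SE 0.64, adjusted p = 0.0643). Within each 4 week population and SS MAC-1-, the sample with the highest lymphoid sum had the lowest *Cdk6*. In 4 week MAC-1low this was replicate 2, with 376.1 and 106.9 CPM. In SS MAC-1low that sample had the highest *Cdk6*. Between the SS populations, MAC-1low against MAC-1-, *Nkg7* had a log2 fold change of -0.33 and *Cdk6* 0.60, neither called. The part of megakaryocyte, neutrophil or lymphoid transcripts in the level of *Cdk6* was not tested.

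Over the 16 samples, log2 CPM of *Cdk6* had a Pearson r of 0.80 with the log2 sum of S phase genes (rho 0.83), 0.67 with that of megakaryocyte markers (rho 0.63), -0.70 with that of neutrophil markers (rho -0.58) and -0.75 with that of HSC markers (rho -0.76), and 0.55 with *Mki67* (rho 0.65). The same values of r for *Ccnd2* were 0.27, 0.21, -0.49, -0.31 and 0.06. These describe 16 samples of 5 populations whose levels differ between populations, so the points are not independent.

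**Figure D5:**
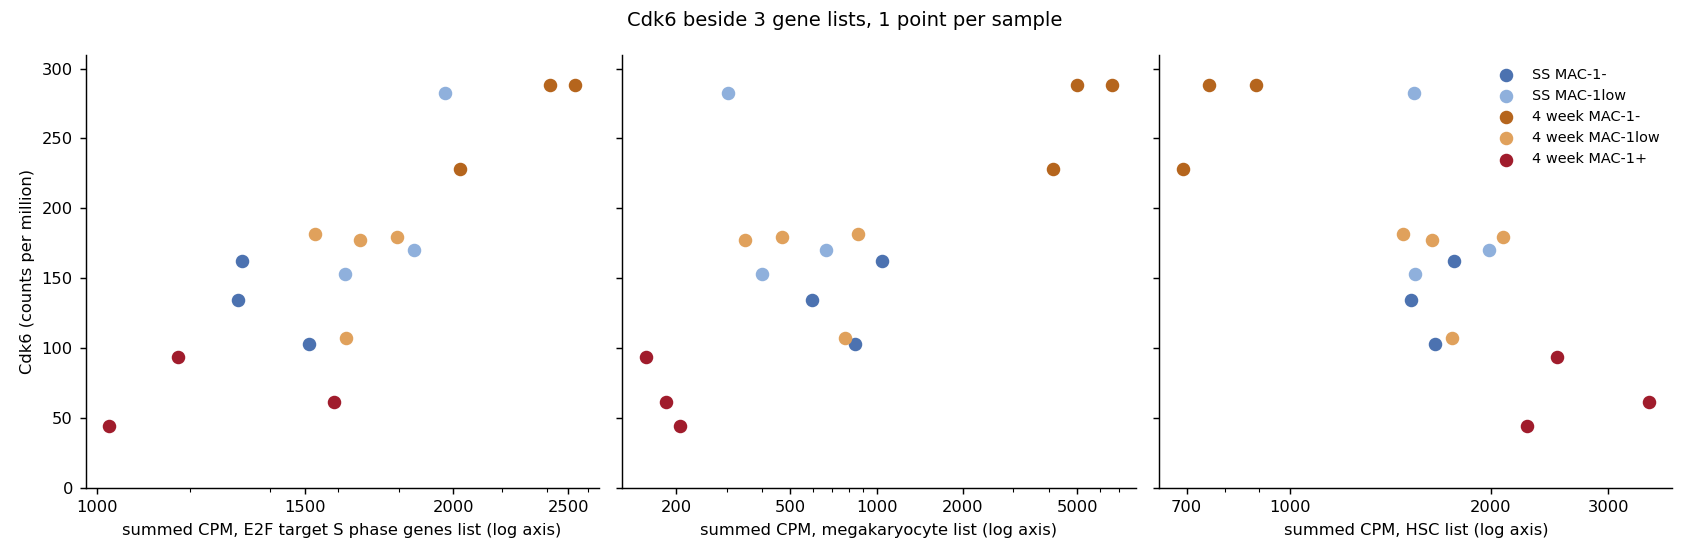
*Cdk6* in CPM (y axis) against the summed CPM of E2F target S phase genes, megakaryocyte markers and HSC markers (x axes, log scale), 1 point per sample and 1 colour per population. The 4 week MAC-1- samples lie at 4130 to 6630 CPM of megakaryocyte markers and 691 to 890 CPM of HSC markers, and the 4 week MAC-1+ samples at the opposite ends of both axes.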

How the data were processed

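Counts per gene were deposited by the authors as raw whole numbers, made from SMART-Seq v4 and Nextera XT libraries (unstranded, no molecular identifiers) by STAR within an nf-core pipeline. How reads were counted, on which build and annotation, is not given in the sources used here. PCR copies are counted as reads, and the upper bound given for a count of 0 covers counting error only. Samples and columns were matched by the labels. edgeR 4.0.16 (R 4.3.3) was used with TMM factors, default filter on low counts, robust quasi-likelihood tests in 1 model of all 16 samples with a mean per population. Adjusted p are Benjamini-Hochberg values over 13661 genes, and genes were called below 0.1. SE and intervals of log2 fold changes come from the same fit and include the spread between samples. Logarithms of CPM had a prior count of 2. Tests were first tried on simulated data. DESeq2 1.42.0 and limma 3.58.1 (voom), other normalization, filters, samples and covariates were alternatives. Genes named are the members, list genes called in a comparison reported, *Mki67*, *Cdkn1a*, *Cdkn1b*, *Cdkn1c*, *Rb1*, *Myc*, both MAC-1 subunits, the 3 genes most similar to each member, and markers of other cells beside a result; 1 similar gene and 1 marker are not reported here. The members and lists were chosen with earlier results of these data known. GENCODE M21 and RefSeq gave places and promoters, a match made here.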

Additional observations from a re-analysis of the deposited data

Results flagged for a closer look

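Only 4 week MAC-1low, with 4 samples, was large enough to look for a sample that stands apart, and 17 genes were looked at. Chance alone sets a sample apart in about 5% of such groups. *Cdk6* was at 106.9 CPM in replicate 2, below the 177.2 to 181.5 CPM of the other samples of that population, with a gap of 0.942 of the whole range. *Ccnd2* was at 350.4 CPM in replicate 3, above 314.1 to 319.2 CPM, a gap of 0.860 of a narrow range. *Cdkn1b* was at 39.95 CPM in replicate 3, above 6.61 to 10.7 CPM, a gap of 0.877 of the range. Dixon's 95% critical value for 4 samples decided what stood apart.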

How the results depend on the processing

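At 4 weeks the fall of *Cdk6* from MAC-1- to MAC-1+ HSCs kept its direction and its call under all 9 alternatives (log2 fold change -2.15 to -1.93) and without each of the 16 samples (-2.31 to -1.75). The fall against SS MAC-1low HSCs was no longer called with limma-voom (-1.64, adjusted p = 0.102) or with only the groups compared (-1.57, adjusted p = 0.285), and ran from -1.95 to -1.29 without single samples. DESeq2 also called *Cdk6* between 4 week MAC-1+ and MAC-1low (-1.24), between 4 week and SS MAC-1- (0.98) and between 4 week MAC-1+ and SS MAC-1- HSCs (-0.95; -1.36 to -0.80 without single samples). Of 50 tests of members, 2 were called, against 5 with DESeq2, 1 with limma-voom and 1 with only the groups compared. Without single samples 1 to 3 were called. DESeq2 also called more of all genes, 318 to 1414 of 13661 in a pairwise comparison, where edgeR called 0 to 444. The cause of these differences was not tested. The joint test of *Cdk6* had an adjusted p of 0.0404 to 0.127 without single samples. Same-numbered samples did not deviate together (r of -0.025 to 0.04 over 30 pairs), so these values showed no pairing by replicate number. With the replicate number as a block, *Cdk6* had an adjusted p of 0.104 in the joint test, and no other call of a member changed. Other ways in which samples may have been sorted together were not used as a block.

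Signs also turned for members that were not called, with no call gained. *Ccnd1* turned in 4 week MAC-1+ against MAC-1- with limma-voom (1.24), in 4 week against SS MAC-1- with limma-voom (-1.82) and the block (-0.65), in 4 week against SS MAC-1low with limma-voom (0.08), the detected genes as a covariate (0.009) and the block (0.35), and in the interaction with limma-voom (1.91) and the block (0.99). *Ccnd3* turned in 4 week MAC-1low against MAC-1- with DESeq2 and its size factors (0.031 each), limma-voom (0.030), no filter (0.038), a stricter filter (0.004), the block (0.062) and only the groups compared (0.015). Without single samples, *Ccnd1* ran from -1.83 to 0.64 in 4 week MAC-1+ against MAC-1-, from -0.062 to 2.28 in 4 week MAC-1low against MAC-1-, from -0.053 to 1.94 in SS MAC-1low against MAC-1-, from -1.62 to 1.36 in 4 week against SS MAC-1-, from -0.36 to 0.69 in 4 week against SS MAC-1low and from -1.42 to 1.56 in the interaction. *Ccnd3* ran from -0.33 to 0.21 in 4 week MAC-1+ against MAC-1-, from -0.16 to 0.14 in 4 week MAC-1low against MAC-1-, from -0.35 to 0.22 in 4 week MAC-1+ against MAC-1low and from -0.48 to 0.64 in 4 week against SS MAC-1-. *Cdk4* (-0.34 to 0.057) and *Ccnd2* (-0.17 to 0.057) turned in 4 week MAC-1+ against MAC-1low, and *Ccnd2* (-0.21 to 0.18) in SS MAC-1low against MAC-1-.

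The spread between samples and 3 or 4 samples per population limit what can be seen, most of all for *Ccnd1* and *Ccnd3*, where a library held 0 and 24 counts. Expression of the proteins and cell cycle phase were not analysed here.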
